A study of Homo sapiens with 6 samples.

Results

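The genes described here are 36 zinc-finger genes of the cluster on 19p12, a stretch of human chromosome 19 in which this gene family expanded in primates. They were taken from a list of neighbouring genes, and matched to the count tables by Ensembl identifier through a table of gene symbols. All 36 symbols had an identifier, and 33 of these were among the 26613 genes listed in at least 1 library. Which members were tested was chosen by their counts summed over all 6 libraries, both groups together: 28 members had 30 or more and were tested, and 8 had fewer. The member just inside that limit was ZNF492 with 78 counts, followed by ZNF730 with 131, and the nearest outside were ZNF626 with 12 and ZNF208 with 7. On GRCh38 (GENCODE release 29) the members run from position 19668796 (ZNF101) to 24129961 (ZNF254) on chromosome 19, 19 on the plus strand and 17 on the minus strand.

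The data were RNA-seq counts per gene from 293T, a transformed human line derived from HEK293 embryonic kidney cells. Cells in 3 libraries had received a miR-941 duplex (the mimic group) at 10 nM, and cells in the other 3 a scrambled oligonucleotide (the mock group), with no concentration given in the sources used here. All 6 libraries came from 1 cell line after lipid transfection, and the labels call the transfections independent replicates. The line bounds what the counts stand for, since no other cell type was sampled.

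Most genes of this cluster encode proteins with a KRAB domain and a row of C2H2 zinc fingers. The fingers bind DNA, often within transposable elements, and the KRAB domain recruits the co-repressor TRIM28, which brings the histone methyltransferase SETDB1 and heterochromatin proteins. ZNF91 is known for silencing SVA elements and ZNF93 for silencing a set of LINE-1 elements. The cluster grew by tandem duplication, so its members resemble each other in sequence, and this bears both on their promoters and on how reads are assigned among them.

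The sequences of the microRNA and of the promoters are shown first. Mature miR-941, credited to RefSeq (GRCh38.p14), is printed with its seed, bases 2 to 8, in capitals.
hsa-miR-941: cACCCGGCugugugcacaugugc
The site that pairs with this seed is GCCGGGT. It was present in the longest annotated 3′ UTR of 2 of the 28 tested members, where 5.34% of the 13704 tested genes with a 3′ UTR have it, and in the coding sequence of none, against 6.29% of tested genes. A match is a description of the sequence, and binding was not measured. The sites of these members are given with 30 bases of context and the match in capitals.
ZNF429: atagtaacctgGCCGGGTagcacagttcct
ZNF431: attaaatattgGCCGGGTgcggtggcttat
The ZNF429 site (chromosome 19, 21555845 to 21555851, plus strand, GRCh38) is in exon 2 of 2 and at position 778 of a 3′ UTR of 1203 bases. It is followed by an A. The ZNF431 site (chromosome 19, 21184069 to 21184075, plus strand) is in exon 5 of 5 and at position 35 of a 3′ UTR of 12019 bases. Neither gene was called lower in the mimic group.

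Promoters of the members share short sequences. In the RefSeq promoters (GRCh38.p14, 250 bases before to 50 after the start), 28 members have an entry, and the 4 sequences of 10 bases held by most of them were taken, leaving out any that shared 6 or more consecutive bases with one already taken. They were thus picked for recurring among the members. TCCAATCAGG, which holds the CCAAT box bound by NF-Y, was present on either strand in 26 of the 28 members' promoters, against 0.347% of all 35116 promoters and 17 of 182 promoters of other chromosome 19 ZNF genes. CTGTCACTCA was present in 22 members (0.328% of all promoters), GGCTTCCGGG, which holds an ETS-type core, in 20 (0.436%), and CTTTGTCTCT in 19 (0.268%). All 4 were present in 11 members and in 0 of the 182 other chromosome 19 ZNF genes. They were present in 15 of all 35116 promoters, among which are those of the members. The 200 bases before the start are shown for 3 members that were higher in the mimic group (ZNF91, ZNF681 and ZNF93) and for 1 near the edge of the cluster that did not pass the test and holds 2 of the 4 (ZNF14), each read along its gene with the 10-base sequences in capitals.
ZNF91: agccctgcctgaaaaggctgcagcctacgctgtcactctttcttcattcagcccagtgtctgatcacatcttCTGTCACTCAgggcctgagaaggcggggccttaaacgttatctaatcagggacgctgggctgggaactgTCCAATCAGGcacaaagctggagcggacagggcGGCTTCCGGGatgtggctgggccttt
ZNF681: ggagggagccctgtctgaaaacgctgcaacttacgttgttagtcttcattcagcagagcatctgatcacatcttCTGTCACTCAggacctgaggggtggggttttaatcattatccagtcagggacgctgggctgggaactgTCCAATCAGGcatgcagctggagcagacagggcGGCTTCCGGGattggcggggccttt
ZNF93: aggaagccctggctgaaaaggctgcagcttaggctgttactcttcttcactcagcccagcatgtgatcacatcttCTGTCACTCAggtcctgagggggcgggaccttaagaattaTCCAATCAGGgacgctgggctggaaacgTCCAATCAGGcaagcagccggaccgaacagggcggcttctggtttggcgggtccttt
ZNF14: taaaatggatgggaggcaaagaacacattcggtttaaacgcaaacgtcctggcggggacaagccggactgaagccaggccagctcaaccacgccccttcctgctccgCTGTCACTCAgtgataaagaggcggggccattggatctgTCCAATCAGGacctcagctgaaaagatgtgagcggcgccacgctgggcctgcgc
On chromosome 19 these stretches lie at 23395472 to 23395671 (ZNF91, minus strand), 23758892 to 23759091 (ZNF681, minus strand), 19900746 to 19900945 (ZNF93, plus strand) and 19733113 to 19733312 (ZNF14, minus strand). CTTTGTCTCT lies across the start in ZNF91, ZNF681 and ZNF93, so only its first bases, cttt, are shown, in lower case. Over the whole promoter entries, all 4 sequences were present in 4 of the 10 members called higher in the mimic group (ZNF91, ZNF675, ZNF681 and ZNF100) and in 6 of the 15 with a promoter entry that did not pass the test.

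The libraries held 6079420 to 7651046 counts, at which 3 counts correspond to 0.392 to 0.493 CPM (counts scaled to a common library size, with TMM factors of 0.995 to 1.00). Libraries of 1 group differed by 1.27 to 2.38 times the variation that sampling gives, and libraries of different groups by 3.58 to 4.80 times. No library was therefore a copy of another, but whether any shared an RNA sample cannot be read from these values. Of 9 genes known to be expressed in 293T cells, 8 exceeded 1 CPM in every library, and the identifier of NEFL was in no table and was taken as 0. Of 10 markers of other cell types, 4 were likewise in no table and only COL1A1 and ACTA2 exceeded 1 CPM in every library. The summed level of these 10 was 52.5 to 55.3 CPM in the mimic libraries and 48.8 to 54.5 CPM in the mock libraries.

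Members of the cluster were expressed at low to moderate levels in these cells, and 1 stretch was close to silent. Compared per length, as CPM per kilobase of annotated exon over all 6 libraries, the level ran from 0.433 ± 0.190 (SD, n = 6, both groups) for ZNF492 to 8.49 ± 0.80 for ZNF90, with a median of 2.67 over the 28 tested members. After ZNF90 came ZNF738 at 5.37 ± 0.77 and ZNF100 at 5.03 ± 0.56. In 26 of the 27 neighbouring pairs in this order the ranges over libraries overlapped, so the order is resolved only between distant ranks. ZNF90 stood apart from ZNF738 without overlap.

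**Figure D1:**
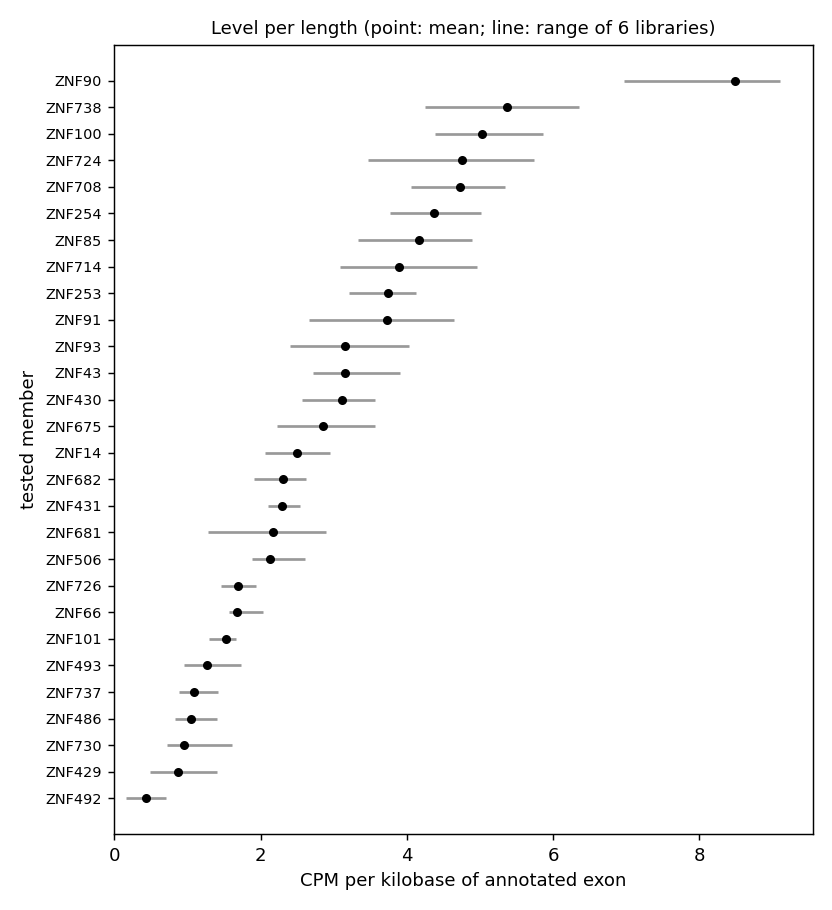
Mean CPM per kilobase of annotated exon (horizontal axis, linear from 0) for each of the 28 tested members, ordered by level. Points are means and lines the range over the 6 libraries. ZNF90 at 8.49 is separate from ZNF738 at 5.37, and all other neighbours overlap.

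The level of ZNF90 is uncertain. An annotated exon of ZNF90 overlaps, over 441 bases of the same strand, a processed pseudogene listed as ENSG00000224864. That pseudogene had 1605 counts against 1789 for ZNF90, and in each library its count was 85.7% to 91.5% of that of ZNF90. Whether the same reads were counted in both could not be read from the tables. Among the other tested members, none had an annotated exon overlapping that of another gene in the tables.

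The near-silent stretch lies between ZNF43 and ZNF730. Of the 8 members there, ZNF208, ZNF257, ZNF676, ZNF729, ZNF98, ZNF99 and ZNF728 had 0 to 7 counts summed over 6 libraries, and ZNF492 had 78. ZNF98, ZNF99 and ZNF728 were listed in no library and were taken as 0, which at this depth allows up to 0.493 CPM in a single library if the authors' annotation held them. The remaining member under the limit was ZNF626, with 1 to 3 counts in each library, which lies earlier along the cluster, between ZNF737 and ZNF66. In ZNF492, 18.7% of the 100-base windows of the longest transcript also occur in another gene's transcripts, mostly those of ZNF98 (740 windows), so reads from this pair are hard to tell apart. Among the other tested members this share was 52.1% in ZNF724 and at most 4.20% elsewhere. ZNF492 had 2.49, 0.696 and 1.41 CPM in mimic replicates 1 to 3 and 2.98, 1.80 and 1.64 CPM in the mock replicates, and the groups overlapped.

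The comparison of mimic with mock asked how the members differed between cells given the 2 oligonucleotides. Of the 28 tested members 10 were higher in the mimic group and none was lower, at an adjusted p under 0.05 by edgeR's quasi-likelihood test over 16885 genes. Over all tested genes 6.06% were called higher and 5.77% lower. At an unadjusted p under 0.05 there were 13 of the 28 members, against 24.2% of all tested genes in either direction. All 3 mimic libraries lay above all 3 mock libraries in 12 members and below them in none, against 13.5% and 13.6% of all tested genes. The fold differences were modest, from 1.20 (ZNF100) to 1.69 (ZNF681). The list was drawn up with results of this contrast known, so the count describes the members and is no independent evidence of a direction.

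ZNF681 had the largest difference. Its level was 16.5, 18.1 and 18.8 CPM in the mimic libraries and 10.8, 12.1 and 8.35 CPM in the mock libraries. Every mimic library lay above every mock library. The log2 fold change was 0.76 ± 0.13 (SE; edgeR, adjusted p = 1.22e-05).

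ZNF91, the SVA repressor and with 31 C2H2 patterns in its coding sequence the most among the tested members, had the smallest p. Its level was 46.6, 42.9 and 48.3 CPM in the mimic libraries and 32.9, 34.1 and 27.7 CPM in the mock libraries. The groups were separated by more than the spread within either. The log2 fold change was 0.53 ± 0.08 (adjusted p = 1.30e-06). ZNF93, the LINE-1 repressor, had 19.2, 20.1 and 22.4 CPM in the mimic libraries and 15.4, 15.3 and 13.4 CPM in the mock libraries. These did not overlap either, and its log2 fold change was 0.47 ± 0.12 (adjusted p = 0.00268). The calls of ZNF681, ZNF91 and ZNF93 held in all 13 alternative analyses.

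The other called members were ZNF714, ZNF254, ZNF493, ZNF724, ZNF675, ZNF43 and ZNF100. ZNF714 had 39.9, 33.1 and 32.0 CPM in the mimic libraries and 24.8, 29.6 and 28.0 CPM in the mock libraries, and a log2 difference of 0.36 ± 0.09. ZNF254 had 36.6, 35.8 and 38.1 CPM against 28.7, 30.4 and 29.8 CPM, with 0.31 ± 0.09, and within each group its libraries were close together. ZNF493 had 15.2, 14.6 and 19.5 CPM against 12.6, 12.5 and 10.6 CPM, with 0.45 ± 0.13. Mimic replicate 3 was the high library of that gene.

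ZNF724 had 18.9, 19.1 and 16.0 CPM in the mimic libraries and 11.5, 15.7 and 13.6 CPM in the mock libraries, with a log2 fold change of 0.41 ± 0.12. Its lowest mimic library was close to its highest mock library. In ZNF724 52.1% of the 100-base windows also occur in another gene's transcripts, so its count is uncertain. ZNF675, whose product is known to bind the signalling adaptor TRAF6, had 21.8, 19.8 and 24.2 CPM against 16.6, 18.9 and 15.1 CPM, with 0.37 ± 0.11. ZNF43 had 28.1, 28.6 and 33.7 CPM against 25.7, 23.5 and 24.2 CPM, with 0.29 ± 0.10. ZNF100 had 34.0, 36.2 and 38.8 CPM against 30.8, 30.8 and 28.98 CPM, with 0.26 ± 0.09. In all of these the mimic libraries lay above the mock libraries without overlap.

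The calls of these 7 changed with the analysis. Their adjusted p values by edgeR's quasi-likelihood test were 0.00445 (ZNF714), 0.00800 (ZNF254), 0.0146 (ZNF493), 0.0182 (ZNF724), 0.0211 (ZNF675), 0.0333 (ZNF43) and 0.0375 (ZNF100), and none of the 7 passed DESeq2's Wald test, where adjusted p ranged from 0.0502 (ZNF714) to 0.152 (ZNF100). Leaving out mimic replicate 1 ended the calls of ZNF714 (0.135), ZNF724 (0.0949) and ZNF675 (0.0614). Leaving out mimic replicate 2 ended those of ZNF100 (0.0774) and ZNF724 (0.0784). Leaving out mimic replicate 3 ended those of ZNF493 (0.133), ZNF100 (0.132), ZNF43 (0.192) and ZNF675 (0.0958). Without mock replicate 1 the calls of ZNF714 (0.0761), ZNF100 (0.0775), ZNF724 (0.199), ZNF675 (0.0806) and ZNF254 (0.0547) ended, without mock replicate 2 those of ZNF100 (0.0753) and ZNF43 (0.133), and without mock replicate 3 those of ZNF493 (0.0985), ZNF100 (0.137), ZNF43 (0.0955), ZNF724 (0.0590) and ZNF675 (0.134). ZNF100 also lost its call with no filter on low counts (0.0577) and with the replicate block (0.0521).

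**Figure D2:**
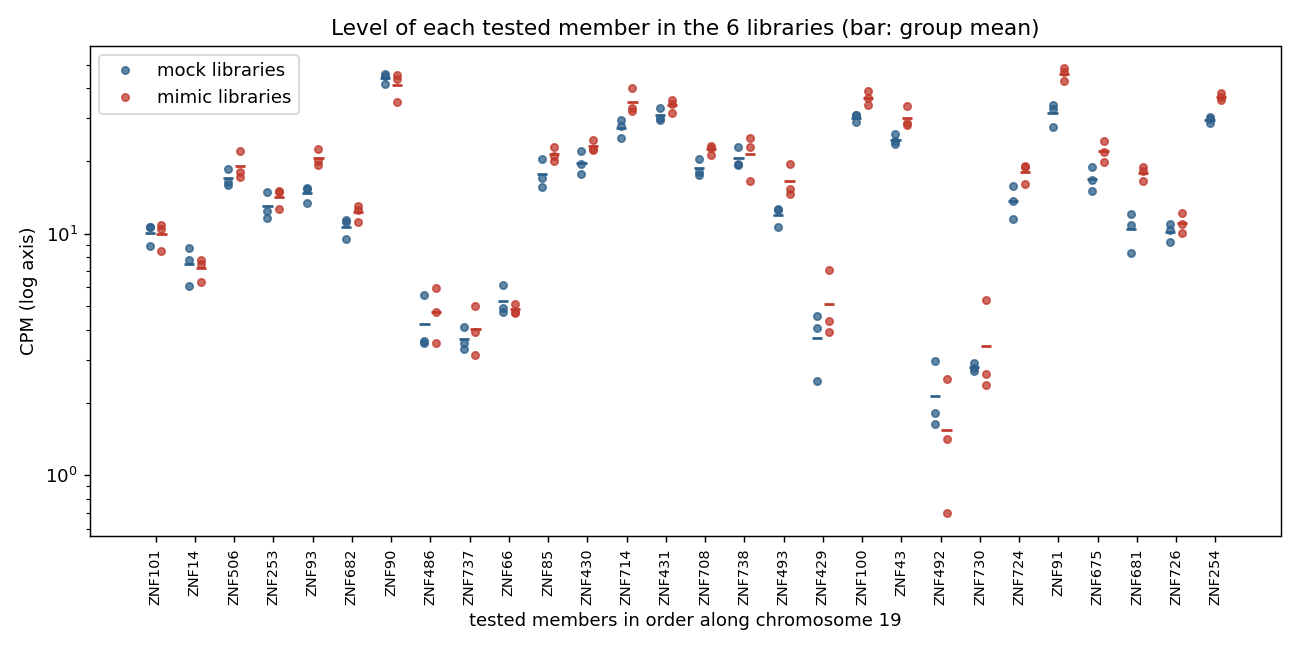
CPM on a log axis for the 28 tested members, in their order along chromosome 19, with mock libraries in blue, mimic libraries in red and group means as bars. The mimic points of ZNF91 and ZNF681 lie above all of their mock points, and those of ZNF90 and ZNF14 overlap them.

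Among the 18 tested members that did not pass, 13 had a positive and 5 a negative log2 fold change. ZNF430 and ZNF708 showed no overlap between groups but did not pass, with 0.23 ± 0.11 (adjusted p = 0.169) and 0.25 ± 0.11 (adjusted p = 0.123) by edgeR's quasi-likelihood test. ZNF85 had 0.26 ± 0.11 (adjusted p = 0.126), and it passed without mock replicate 2 (0.0459). ZNF431, reported as a repressor of the hedgehog receptor gene PTCH1, had 0.14 ± 0.09, and ZNF429 had 0.41 ± 0.24. These carry the seed sites printed above.

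ZNF738, the second highest member per length, had 22.8, 16.6 and 24.8 CPM in the mimic libraries and 19.5, 19.3 and 22.8 CPM in the mock libraries. Its groups overlapped, with mimic replicate 2 the lowest of all. The longest annotated coding sequence of ZNF738 has 414 bases and 0 C2H2 patterns. ZNF90 had 45.3, 43.5 and 35.0 CPM against 41.5, 45.7 and 44.7 CPM. Its groups overlapped, and the log2 difference was −0.08 ± 0.08. The overlapping pseudogene ENSG00000224864 had −0.10 ± 0.09, so this value may not be that of ZNF90 itself. ZNF730 had 2.62, 5.29 and 2.35 CPM against 2.71, 2.91 and 2.78 CPM, and mimic replicate 2 was its only mimic library above the mock range. The other negative values were ZNF492 (−0.47 ± 0.35), ZNF66 (−0.11 ± 0.21), ZNF14 (−0.04 ± 0.18) and ZNF101 (−0.01 ± 0.15).

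The remaining members that did not pass were ZNF506 (0.17 ± 0.12), ZNF253 (0.14 ± 0.13), ZNF682 (0.20 ± 0.14), ZNF486 (0.17 ± 0.23), ZNF737 (0.13 ± 0.24) and ZNF726 (0.13 ± 0.15). The SE of the log2 fold change was 0.08 for ZNF91 with 1629 counts and 0.35 for ZNF492 with 78, so a difference of the size seen in ZNF100 was not detectable in the members with the lowest counts.

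Along the chromosome, of the first 9 tested members, ZNF101 to ZNF737, 1 was called (ZNF93), of the middle 10, ZNF66 to ZNF100, 3 were, and of the last 9, ZNF43 to ZNF254, 6 were. The median log2 fold changes of these stretches were 0.14, 0.26 and 0.31. Across the 28 members the log2 fold change had a Spearman correlation of 0.48 with the order along the chromosome, 0.45 with exon length, −0.31 with GC content and 0.27 with summed counts. These are descriptions across genes of the same 6 libraries, and the members are not independent.

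**Figure D3:**
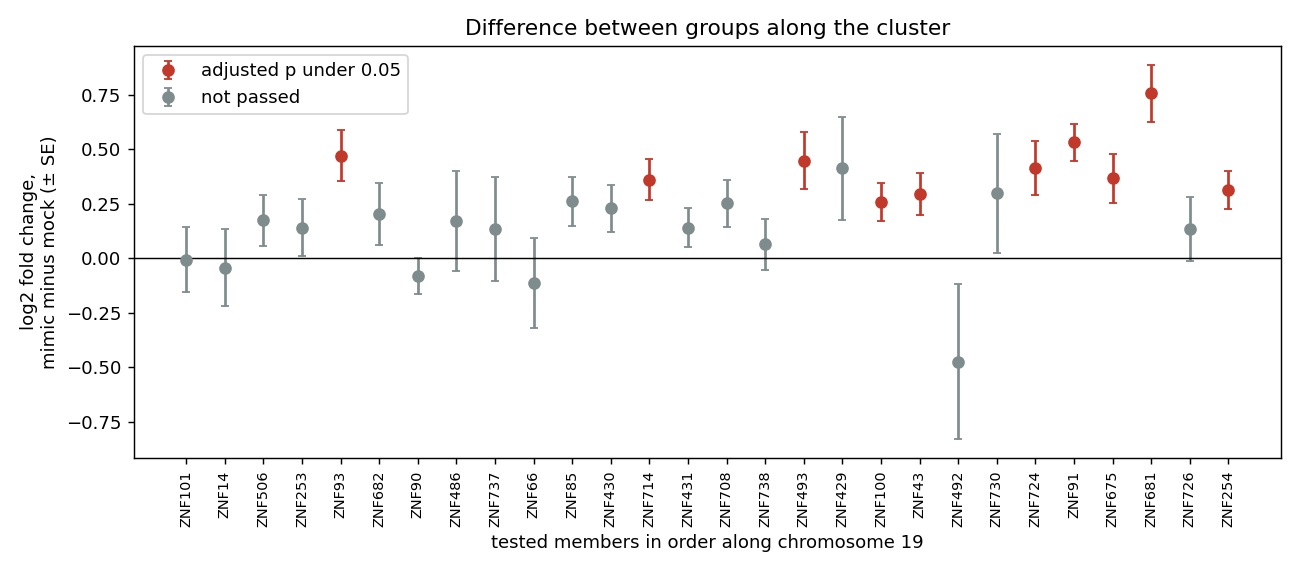
Log2 fold change of mimic over mock, with its SE, for the 28 tested members in chromosomal order, and those with an adjusted p under 0.05 in red. Of the 9 members at the right, from ZNF43 on, 6 are red, and of the 9 at the left 1 is.

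Genes of other kinds between the outermost members gave no calls. Only 5 of them were tested, ENSG00000224864 above among them, and in each the groups overlapped. Their median log2 fold change was −0.10. By edgeR's quasi-likelihood test 0 of the 5 had an unadjusted p under 0.05, against 24.2% of all tested genes, and so few genes show little either way. ENSG00000213976, RPL7AP10 and ENSG00000233836 had group means of only 0.77 to 1.91 CPM. With SEs of 0.34 to 0.50, a difference of the size seen in ZNF100 was not detectable in them. ENSG00000224864 may share reads with ZNF90.

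The summed level of all 36 members was 549, 523 and 548 CPM in the mimic libraries and 439, 473 and 446 CPM in the mock libraries. The groups did not overlap, and the ratio of their means was 1.19. All other ZNF genes summed to 13062, 13076 and 13149 CPM in the mimic libraries and 11978, 12221 and 12085 CPM in the mock libraries. These groups did not overlap either, and the ratio was 1.08. In these bulk samples a change in RNA per cell and a change in the share of cells expressing the genes cannot be told apart. The median log2 fold change of the 28 tested members was 0.24, where that of all tested genes was 0.00. Of the 28, 23 (82.1%) were positive, where 50.2% of all tested genes were. The positive share was 79.1% in other tested ZNF genes on chromosome 19 and 67.3% in those on other chromosomes.

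Zinc-finger genes elsewhere were called higher more often than lower. Of 187 other tested ZNF genes on chromosome 19, 42 were called higher and none lower, with a median of 0.15. Of 211 ZNF genes on other chromosomes 27 were called higher and 2 lower, with a median of 0.08. The called share was 35.7% in the 19p12 members, 22.5% in other chromosome 19 genes and 12.8% elsewhere, and the differences between these shares were not tested. Their median GC content was 37.4%, 42.8% and 45.6%, against 48.4% in all tested genes. Once GC content and length entered the fit as an offset the 19p12 count was 10 and the median 0.26. Whether GC content bears on the order of the called shares was not tested.

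**Figure D4:**
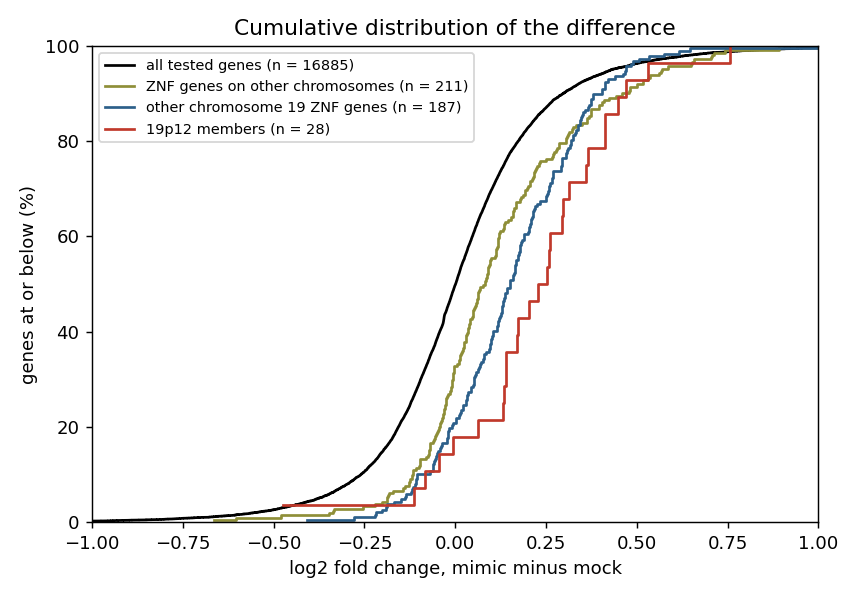
Share of genes (%) at or below each log2 fold change of mimic over mock, for all 16885 tested genes (black), ZNF genes on other chromosomes (olive), other chromosome 19 ZNF genes (blue) and the 28 tested members (red). The medians rise in that order, 0.00, 0.08, 0.15 and 0.24, and the curves cross in the tails.

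The partners through which KRAB zinc-finger proteins silence DNA differed among themselves. Of 24 listed genes 21 were tested, and 6 were called higher and 1 lower by edgeR's quasi-likelihood test (over all tested genes 6.06% and 5.77%, so the share called lower was no higher than that of all genes). In 9 of the 21 (42.9%) all mimic libraries lay above all mock libraries and in 5 (23.8%) below them. Over all tested genes these shares were 13.5% and 13.6%. The 5 were MPHOSPH8, CBX3, PPHLN1, DNMT3B and SMARCAD1, and of these only MPHOSPH8 was called lower. TRIM28, the co-repressor bound by KRAB domains, had 654, 606 and 602 CPM in the mimic libraries and 703, 646 and 668 CPM in the mock libraries. These overlapped, and its log2 fold change of −0.11 ± 0.04 did not pass (adjusted p = 0.0883), although it did with that offset (0.0107). SETDB1, the histone methyltransferase, had 96.0, 101 and 104 CPM against 92.0, 102 and 92.5 CPM, and 0.07 ± 0.06 did not pass (adjusted p = 0.510).

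MPHOSPH8, the chromodomain subunit of the HUSH silencing complex, was the partner called lower. It had 48.9, 41.4 and 45.5 CPM in the mimic libraries and 66.3, 62.7 and 62.4 CPM in the mock libraries, without overlap, and its log2 fold change was −0.49 ± 0.07 (adjusted p = 2.18e-07 by edgeR's quasi-likelihood test). For the next genes the log2 difference is followed by its adjusted p. CHD3, a chromatin remodeller of the NuRD complex, rose from 234, 244 and 248 CPM to 326, 323 and 347 CPM, by 0.46 ± 0.05 (2.65e-12). HDAC1, a histone deacetylase of the same complex, rose from 168, 164 and 172 CPM to 202, 201 and 204 CPM, by 0.27 ± 0.05 (2.35e-05). CBX5, the heterochromatin protein HP1 alpha, rose from 209, 224 and 220 CPM to 266, 268 and 243 CPM, by 0.25 ± 0.05 (8.60e-05).

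The remaining called partners were the histone methyltransferase EHMT1 (0.19 ± 0.05), TASOR of the HUSH complex (0.20 ± 0.06) and MORC2, an ATPase that works with HUSH (0.22 ± 0.06). The calls of TASOR and MORC2 ended under DESeq2 (adjusted p = 0.0661 and 0.0792) and without mock replicate 1 (0.144 and 0.109), that of MORC2 also without mimic replicate 3 (0.118) and mock replicate 3 (0.0755), and that of EHMT1 without mock replicate 2 (0.0510). Of the 3 listed genes not tested, DAXX and EHMT2 had 2 and 1 counts in all, and the identifier of UHRF1 in the symbol table was not listed in the count tables. Why these counts were low or absent was not tested, so they do not show that the genes are silent in these cells.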

How the data were processed

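The authors deposited raw counts, whole numbers for each Ensembl gene and without normalization, in a table for every library. STAR, hg19 and edgeR are named in the submitters' processing notes. No counting program, annotation, strand setting or rule for reads with several matches was given in the sources used here. Genes that a table does not list were set to 0. The 16885 genes with 30 or more counts summed over 6 libraries were tested (99.8% of the counts) with TMM scaling and edgeR's quasi-likelihood test, two-sided, group only, with Benjamini-Hochberg adjustment at 0.05. CPM values use library totals times TMM factors. Replicates have a biological coefficient of variation of 3.82%. The tools were edgeR 4.0.16, DESeq2 1.42.0, limma 3.58.1 and, for the offset, mgcv 1.9.3, in R 4.3.3.

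The members and lists were chosen with earlier results of these data known. Values per library are given for called members, the 3 highest per length, those nearest the count limit, TRIM28, SETDB1 and the 4 other partners with the smallest p. Exon lengths, positions and 100-base windows come from GENCODE release 29 (GRCh38), not the authors' hg19, and windows were compared by exact match among annotated transcripts only. C2H2 patterns were counted in the longest coding sequence as C, 2 residues, C, 12 residues, H, 3 to 5 residues, H. Alternatives were other scaling, DESeq2, other filters, each library left out, a replicate block and a GC and length offset.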

Additional observations from a re-analysis of the deposited data

How the results depend on the processing

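The number of members called higher was 10, and it was 3 with DESeq2's Wald test and 5 to 9 when 1 library was left out. The lowest values came without mock replicate 1 and without mock replicate 3 (5 each), and the count was 6 without mimic replicate 3. No member was called lower in any of the 13 alternatives. Their median log2 fold change was 0.19 to 0.28 with 1 library left out. Over all genes 1997 were called, 1021 with DESeq2, which gave no adjusted p to 5893 genes, and 1263 to 2033 with 1 library left out. The partners called lower were 1, and 2 with the GC and length offset, alone or with the replicate block. With the replicate block 9 members were called, all of them among the 10. Same-numbered libraries did not deviate together (correlations of 0.05, −0.04 and −0.01). Of the 3 mimic libraries, 1 correlated best with the mock library of its own number. With 3 libraries per group this cannot show whether same-numbered libraries were prepared together. The ratio of summed member levels was 1.19 with each scaling. Depth limits the members with few counts, and the limit set by 3 counts covers counting error only.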
